A study of Sus scrofa with 3 samples.

Results

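The 10 genes of the adipocyte lineage and of lipid droplets described here were followed across 3 pig cell populations, and each had a row under its symbol among the 26466 symbols of the count tables. The genes were chosen by symbol: the transcription factors PPARG, CEBPA, CEBPB and CEBPD, the droplet coat proteins PLIN1 and PLIN2, the lipid handling genes FABP4 and LPL, and the secreted factors ADIPOQ and CFD. The populations were peripheral blood mononuclear cells (PBMC), mesenchymal stem cells derived from bone marrow (BM-MSC) and attached cells of bone marrow (BMAC), each from Sus scrofa and each with 1 library. The labels give no breed, age, treatment, culture time or animal for any of the populations, so donor and population cannot be told apart. Libraries were made with the Lexogen QuantSeq kit from 500 ng of Trizol-extracted total RNA, so that reads come from the 3' ends of polyadenylated transcripts.

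Fat cells form when mesenchymal progenitors, including those of bone marrow, switch on a cascade of transcription factors. CEBPB and CEBPD act early, and PPARG and CEBPA then sustain each other and turn on genes such as FABP4, LPL, PLIN1 and ADIPOQ. The resulting cell stores triglyceride in droplets whose surface is covered by perilipins. Several of these genes are not limited to fat: PLIN2 coats droplets in many cell types, FABP4, LPL and CFD are also made by macrophages or monocytes, and CEBPA and CEBPB work in myeloid cells.

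The PBMC library held 15445903 counts, the BM-MSC library 17069344 and the BMAC library 15122997, and levels below are counts per 1000000 of these totals (CPM). A gene was treated as measured in a pair when 1 of the libraries reached 10 CPM, and was called different when log2((CPM + 1)/(CPM + 1)) was at least 2 in size, a 4-fold difference. With 1 library per population there was no replicate check and no test between populations. Intervals in parentheses are 95% exact intervals that cover counting error only, without molecular identifiers. A count of 0 still allows up to 3 counts, or 0.176 CPM in BM-MSC, 0.194 CPM in PBMC and 0.198 CPM in BMAC. A fold given as at least takes 0 as these 3 counts. It leaves out the counting error of the higher library, so it is not a 95% limit.

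The labels were set against marker genes. Of 11 leukocyte markers, 10 reached 10 CPM in PBMC and 0 in either marrow library, and of 10 stromal markers such as COL1A1, 10 reached it in BM-MSC and in BMAC and 1 in PBMC. Of 6 adipocyte markers (ADIPOQ, PLIN1, CIDEC, LEP, FABP4 and PPARG), 0 reached 10 CPM in any library. Their summed level was 11.0 CPM in BM-MSC, 5.96 CPM in PBMC and 1.52 CPM in BMAC, where ADIPOQ and FABP4 were at 0. ADIPOQ, CIDEC and LEP, the most fat cell restricted of these, were under 1 CPM in all 3 libraries. In bulk RNA of this kind, fewer cells of a type and less RNA per cell cannot be told apart.

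Among the 10 genes, 3 reached 10 CPM in at least 1 library (CEBPD, PLIN2 and CFD) and 7 stayed below it in every library. BM-MSC held counts for 9 of the 10 genes, PBMC for 9 and BMAC for 6. The plot of levels by gene and library shows 2 kinds of gene. CEBPD and PLIN2 were at 92.3 CPM or more in every library, whereas PPARG, CEBPA, FABP4 and LPL stayed below 10 CPM, the first pair lowest in BMAC and the second pair highest in BM-MSC.

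**Figure D1:**
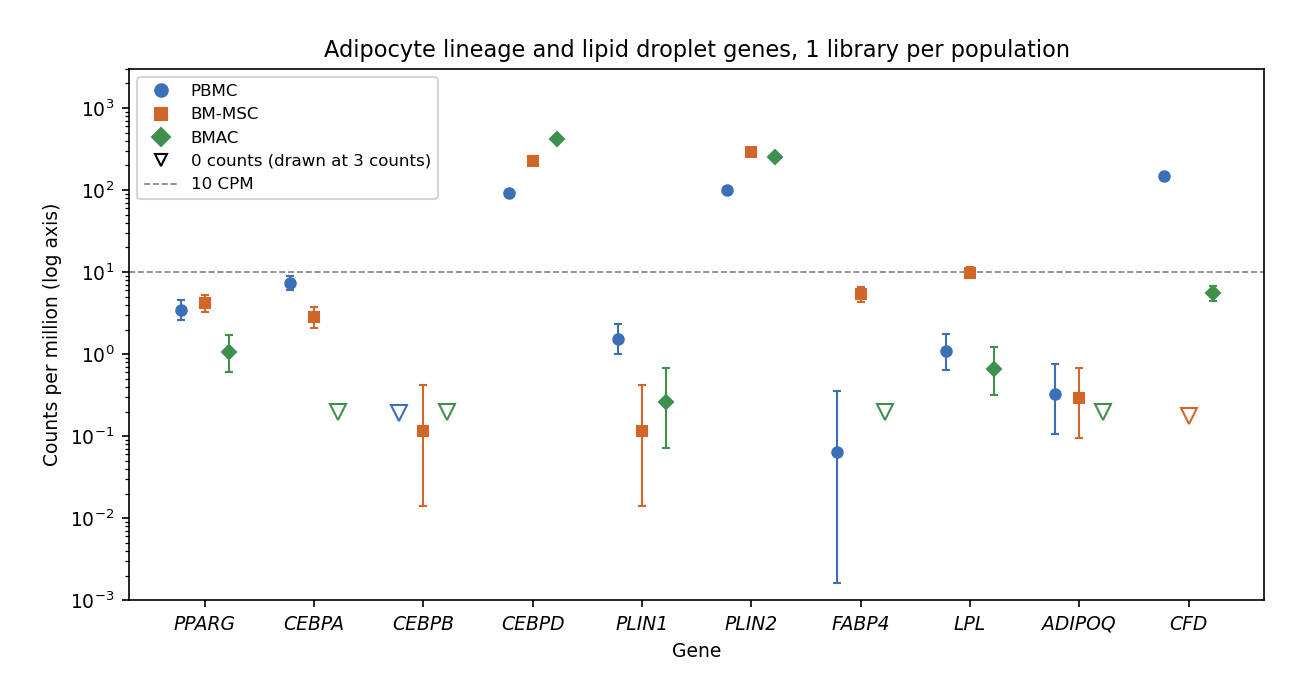
Level of each of the 10 genes in CPM on a log axis, with 1 symbol per library and bars for the 95% counting interval. Open triangles stand for 0 counts and are drawn at the level of 3 counts; only CEBPD and PLIN2 lie above the dashed line of 10 CPM in all 3 libraries, and CFD does so in PBMC alone.

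The transcription factors of the cascade differed from each other. PPARG, the nuclear receptor that directs fat cell formation, was covered by 54 counts in PBMC, by 71 in BM-MSC and by 16 in BMAC, or 3.50, 4.16 and 1.06 CPM. Its level in BM-MSC was close to that in PBMC (1.19-fold, 0.823 to 1.73) and was 3.93-fold higher than in BMAC (2.26 to 7.25). CEBPA, which sustains PPARG in fat cells and also acts in myeloid cells, was covered by 114 counts in PBMC, by 48 in BM-MSC and by 0 in BMAC, or 7.38, 2.81 and 0 CPM. BMAC thus gave no read for CEBPA, against at least 14.2-fold more in BM-MSC and at least 37.2-fold more in PBMC. All of these levels lie under 10 CPM, so neither gene entered the 4-fold calls.

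CEBPD, the early factor that also responds to inflammatory and hormonal signals, was instead highest in BMAC. Its level was 416 CPM in BMAC (405 to 426), 226 CPM in BM-MSC (219 to 233) and 92.3 CPM in PBMC (87.6 to 97.2), from 6286, 3859 and 1426 counts. The counting intervals of the 3 libraries did not overlap. BMAC held 4.50-fold more than PBMC (4.25 to 4.77) and 1.84-fold more than BM-MSC (1.77 to 1.91), and BM-MSC 2.45-fold more than PBMC (2.30 to 2.60). The difference between BMAC and PBMC passed the 4-fold rule, while 12.9% of the 11371 genes measured in that pair had a ratio at least as far towards BMAC. SPIDR, a DNA repair gene that lies next to CEBPD in the RefSeq annotation of Sscrofa11.1, stood at 159, 54.4 and 60.2 CPM in the same order. SPIDR was thus 2.93-fold higher in BMAC than in BM-MSC (2.71 to 3.16) and 1.11-fold higher in PBMC than in BM-MSC (1.01 to 1.21), so it shared the high BMAC level of CEBPD but not the step from PBMC to BM-MSC. PRKDC, the neighbour on the other side and the catalytic subunit of a DNA repair kinase, was instead highest in PBMC, at 24.9, 19.3 and 65.6 CPM in that order, 2.64-fold above BMAC (2.34 to 2.98).

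CEBPB, the partner of CEBPD early in the cascade, had 2 counts in BM-MSC and 0 in both PBMC and BMAC. Reads from the 3' end are counted only where the annotated gene reaches that end, so these counts do not show that CEBPB was silent, and no fold was taken. Other genes with a CEBP symbol showed small differences. CEBPG, a partner that lacks an activation domain of its own, stood at 30.2, 27.7 and 39.3 CPM in PBMC, BM-MSC and BMAC. CEBPZ, whose row overlaps CEBPZOS, stood at 104, 117 and 105 CPM. CEBPE, a granulocyte factor, had 0.259 CPM in PBMC and 0 in both marrow libraries.

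The droplet coat proteins also parted. PLIN2, which coats droplets in many cell types, had 295 CPM in BM-MSC (287 to 303), 255 CPM in BMAC (247 to 263) and 99.96 CPM in PBMC (95.04 to 105), from 5039, 3860 and 1544 counts. Both marrow libraries were above PBMC, BM-MSC by 2.95-fold (2.79 to 3.13) and BMAC by 2.55-fold (2.41 to 2.71), and they differed from each other by 1.16-fold (1.11 to 1.21). PLIN2 therefore stayed under the 4-fold rule in every pair. PLIN1, the perilipin of fat cells, was covered by 24 counts in PBMC, by 2 in BM-MSC and by 4 in BMAC, or 1.55, 0.117 and 0.264 CPM. Its higher library was the blood cells, by 13.3-fold over BM-MSC (3.29 to 116) and 5.87-fold over BMAC (2.02 to 23.3). PLIN1 overlaps the row LOC106510160, whose 14, 23 and 17 counts did not follow that order, and its own value is uncertain because no source used here says whether strand was used in counting.

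The lipid handling genes showed a clear peak in BM-MSC. FABP4, a cytosolic carrier of fatty acids in fat cells and macrophages, had 92 counts in BM-MSC, 1 in PBMC and 0 in BMAC. Its level of 5.39 CPM in BM-MSC (4.34 to 6.61) was at least 27.2-fold above BMAC and 83.2-fold above PBMC, the latter with an interval of 14.6 to 3323 because PBMC held a single count. LPL, the secreted lipase that releases fatty acids from lipoproteins, had 168 counts in BM-MSC, 17 in PBMC and 10 in BMAC, or 9.84, 1.10 and 0.661 CPM. BM-MSC was 14.9-fold above BMAC (7.90 to 31.6) and 8.94-fold above PBMC (5.42 to 15.7), while PBMC and BMAC had overlapping intervals. LPL missed the 10 CPM floor narrowly. With TMM factors, with median-of-ratios factors or with ribosomal and mitochondrial rows left out of the total, it reached the floor and was called higher in BM-MSC against both other libraries.

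LOC100158108, the nearest counted row on one side of LPL in the same annotation, had 431 counts in BM-MSC, 293 in PBMC and 10 in BMAC. It was 38.2-fold lower in BMAC than in BM-MSC (20.6 to 80.2), and 1.33-fold apart (1.14 to 1.55) between PBMC and BM-MSC. SLC18A1, a vesicular amine transporter gene on the other side of LPL, had 7 counts in BM-MSC, 86 in PBMC and 10 in BMAC, and so did not peak in BM-MSC. The rows next to FABP4 did not follow it: IMPA1 stood at 16.6 CPM in BM-MSC, 11.4 CPM in PBMC and 10.6 CPM in BMAC, and PMP2, a related carrier, had 2, 4 and 0 counts.

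Of the secreted factors, CFD was highest in blood cells and ADIPOQ was hardly found at all. ADIPOQ, which encodes adiponectin, had 5 counts each in PBMC and BM-MSC and 0 in BMAC, too few to order the libraries. CFD encodes complement factor D, also called adipsin, the serine protease that cleaves factor B in the alternative complement pathway. PBMC had 2325 counts of it, BMAC 84 and BM-MSC 0, or 151 CPM (144 to 157), 5.55 CPM (4.43 to 6.88) and 0 CPM. PBMC was at least 856-fold above BM-MSC and 27.1-fold above BMAC (21.8 to 34.1), and BMAC at least 31.6-fold above BM-MSC. The summed level of monocyte and macrophage markers had the same order: their 10 genes came to 581 CPM in PBMC, 22.3 CPM in BMAC with LYZ and FCGR3A at 0, and 11.4 CPM in BM-MSC with CSF1R at 0. Of these 10 markers 7, 1 and 0 reached 10 CPM, and 6 were called higher in PBMC than in each marrow library. The measured exception was CD14, the 1 marker at 10 CPM in BMAC, which was higher there (17.3 CPM) than in PBMC (12.9 CPM) by 1.33-fold (1.10 to 1.61) and stood at 3.63 CPM in BM-MSC. The order of the marrow libraries in the summed level rested on CD14 alone: without it, the sum was lower in BMAC than in BM-MSC. The part of these markers in the CFD difference was not tested. Genes of granule proteases that lie beside CFD were low, with PRTN3 and AZU1 at 30 and 29 counts in PBMC and 0 in both marrow libraries, and ELANE at 4 counts in BMAC and 0 elsewhere.

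CFD overlaps MED16, a subunit of the Mediator complex that bridges transcription factors and RNA polymerase. PBMC had 2601 counts of MED16, BM-MSC 340 and BMAC 443, so this row too was higher in PBMC, by 8.45-fold over BM-MSC (7.55 to 9.49) and by 5.75-fold over BMAC (5.20 to 6.37). The excess of MED16 over CFD was 276, 340 and 359 counts, or 17.9, 19.9 and 23.7 CPM, a far smaller spread than that of either row. In BM-MSC the 340 counts of MED16 came with 0 for CFD, so the MED16 reads of that library were not counted in CFD. Whether CFD reads were counted in both rows was not tested.

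**Figure D2:**
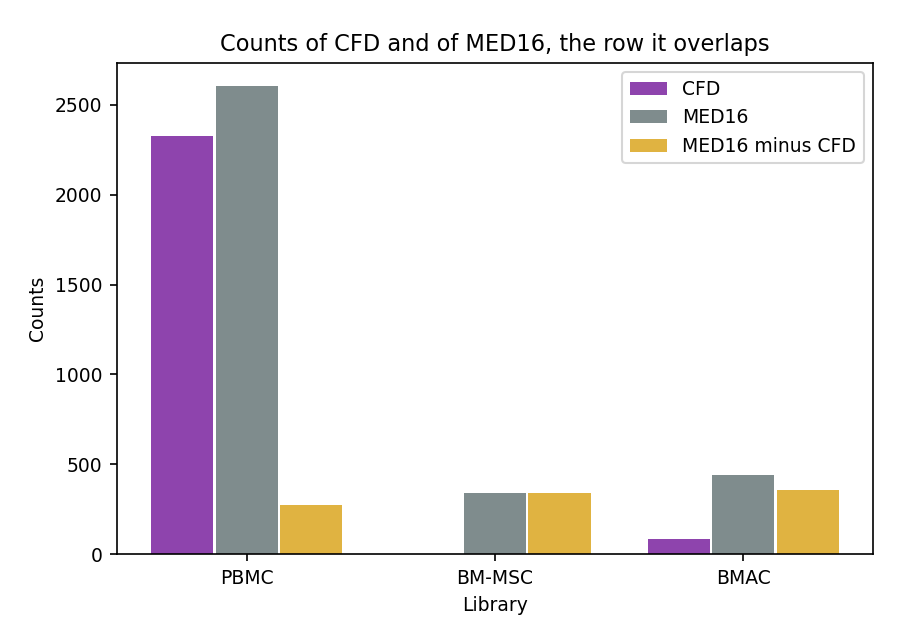
Counts of CFD, of MED16 and of MED16 minus CFD in each library. CFD and MED16 are both highest in PBMC (2325 and 2601 counts), and their difference is 276, 340 and 359 counts.

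In calls over the whole table, BM-MSC against PBMC gave 0 of 3 measured genes higher in BM-MSC, where 14.3% of 11428 genes were, and 1 of 3 higher in PBMC, CFD, where 15.7% were. BMAC against PBMC gave 1 of 3 higher in BMAC, CEBPD, against 14.0% of 11371 genes, and 1 of 3 higher in PBMC, CFD, against 12.8%. BMAC against BM-MSC gave 0 of 2 measured genes in either direction, where 3.21% of 10303 genes were higher in BMAC and 2.90% higher in BM-MSC. These pairs share libraries, so they are not independent of each other. With so few measured genes the counts cannot be set apart from the background. With a floor of 1 CPM instead of 10 CPM, 7 genes were measured between the marrow libraries, of which FABP4 and LPL were called higher in BM-MSC, where 2.36% of 16336 genes were, and CFD higher in BMAC, where 2.46% were.

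**Figure D3:**
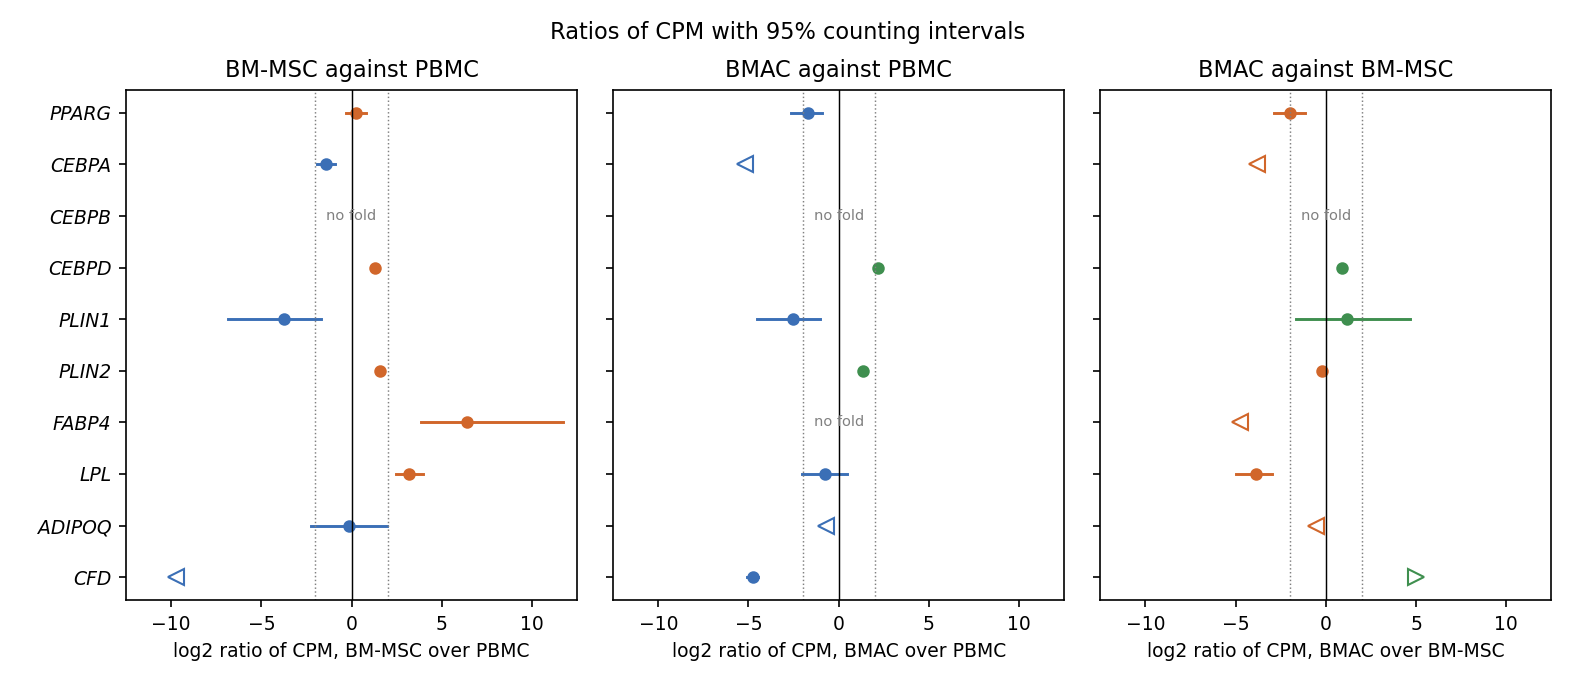
Log2 ratio of CPM for each of the 10 genes in the 3 pairs, with lines for the 95% counting interval, dotted lines at 4-fold and colours for the higher library. Open triangles are lower bounds against a library with 0 counts; FABP4, LPL, CEBPA and PPARG lie on the BM-MSC side of BMAC against BM-MSC, and CEBPD on the BMAC side.

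The median log2 ratio of the 10 genes was 0.18 for BM-MSC over PBMC, -0.37 for BMAC over PBMC and -0.29 for BMAC over BM-MSC, beside -0.16, -0.12 and 0.09 over all measured genes. The sets differ, since most of the 10 genes lie under the 10 CPM floor that the measured genes pass. With a floor of 1 CPM the medians over measured genes were -0.30, -0.26 and 0.07. Beyond counting error, 5 of the 10 genes were higher in BM-MSC than in BMAC (PPARG, CEBPA, FABP4, LPL and PLIN2) and 2 were higher in BMAC (CEBPD and CFD). By the same rule, an interval that excludes equality or at least 10 counts against 0, 24.6% of the 22071 symbols with a count in either library were higher in BM-MSC and 29.6% in BMAC. The 10 genes were chosen with such values known, so nothing is read from that comparison. The other 3, CEBPB, PLIN1 and ADIPOQ, had at most 5 counts in either marrow library. With TMM factors the median of all genes moved from -0.16 to 0.23 for BM-MSC over PBMC and from -0.12 to 0.21 for BMAC over PBMC, and the share of called genes that were higher in BM-MSC moved from 47.6% to 58.5% (59.5% with median-of-ratios factors). Relative to that median, the log2 ratio of CEBPD for BMAC over PBMC was 2.28 by library total and 2.23 with TMM. That of PLIN2 for BM-MSC over PBMC was 1.71 and 1.66.

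**Figure D4:**
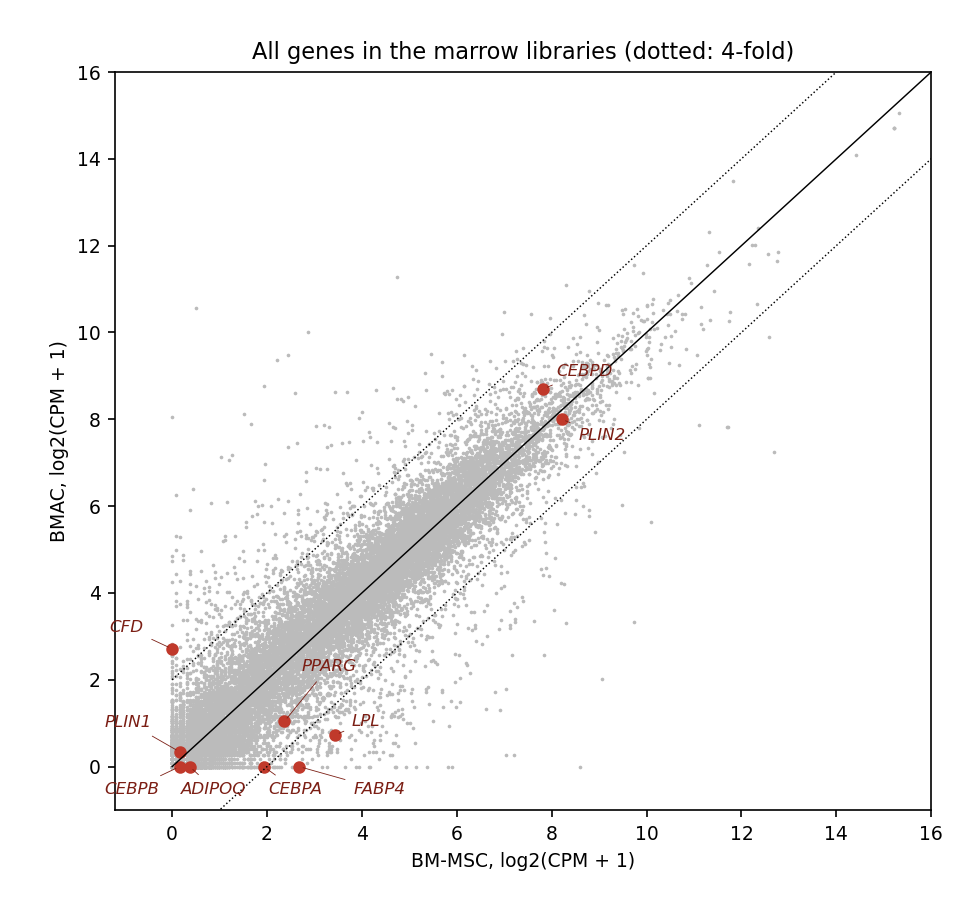
All genes with a count, as log2(CPM + 1) in BM-MSC (horizontal) and BMAC (vertical), with the 10 genes in red, a solid line for equality and dotted lines for 4-fold. CEBPD and PLIN2 sit inside the cloud, FABP4 and LPL lie below the lower dotted line at levels under 10 CPM, and CFD lies above the upper one.

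Genes with a pattern like that of CEBPD and PLIN2, the pair above 10 CPM in every library, were found by distance of log2(CPM + 1) over the 3 libraries, without LOC symbols. Nearest to CEBPD were OPTN (90.7, 242 and 402 CPM in PBMC, BM-MSC and BMAC; distance 0.11), ZFP36L1 (distance 0.25) and SNX9 (distance 0.33). Nearest to PLIN2 were CD81 (114, 289 and 254 CPM; distance 0.20), LAMP2 (distance 0.22) and PRKAR1A, which overlaps FAM20A (distance 0.22). Likeness over 3 libraries is a weak description.

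Other genes of the same processes were taken from lists of related genes, without the 10 above. Between the marrow libraries, 3.21% of all measured genes were called higher in BMAC and 2.90% in BM-MSC. Among 29 adipogenic transcription factors and cofactors, 19 were measured between the marrow libraries, of which 0 were called higher in BMAC and 1 in BM-MSC (median -0.00). That gene was EBF2, a factor of adipocyte precursors, at 20.5 CPM in BM-MSC against 1.19 CPM in BMAC (17.2-fold, 10.7 to 29.4), the same direction as PPARG and CEBPA. EBF3, overlapping LOC106506157, stood the other way at 21.6 CPM in BMAC and 6.74 CPM in BM-MSC (3.21-fold, 2.59 to 4.005). EBF1, which serves both B cells and fat cell precursors, was at 132 CPM in BMAC, 212 CPM in BM-MSC and 928 CPM in PBMC. Against PBMC the list had 1 gene higher and 6 lower in BM-MSC of 19 measured (median -0.90), and 1 higher and 5 lower in BMAC of 18 (median -0.35). Over all genes, 14.3% were higher and 15.7% lower in BM-MSC, and 14.0% higher and 12.8% lower in BMAC. Genes known to restrain fat cell formation had 6 of 16 higher than in PBMC and 2 lower in each marrow population (medians -0.41 in BM-MSC and 0.00 in BMAC), beside those same shares over all genes. Between the marrow libraries 1 of the 16 was called higher in BMAC and 0 in BM-MSC (median -0.00). That gene was GATA3, also a factor of T cells, at 35.6 CPM in BMAC and 7.97 CPM in BM-MSC (4.47-fold, 3.70 to 5.44). ID3, an inhibitor of helix-loop-helix factors, was at 9.45, 898 and 444 CPM in PBMC, BM-MSC and BMAC, and GATA2 at 0.388, 23.4 and 40.8 CPM. DLK1, the preadipocyte factor, had 0 counts in all 3 libraries.

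Around PLIN2, genes of droplet coat and formation were called higher in BM-MSC than in PBMC for 5 of 9 measured (median 2.39) and in BMAC for 4 of 8 (median 2.05), with 0 lower in both, beside 14.3% and 14.0% of all genes. The called genes were CAV1, CAV2, CAVIN1 and HILPDA in both, and CAVIN2 in BM-MSC, so all but HILPDA encode proteins of caveolae. PLIN3, BSCL2, RAB18 and FAF2, which act on droplets, were not called in either. The largest ratios were those of CAVIN1 and CAV1, at 0.583 and 0.518 CPM in PBMC, 403 and 239 CPM in BM-MSC and 279 CPM for both genes in BMAC. HILPDA, an inhibitor of triglyceride lipase that overlaps FAM71F2, was at 10.7, 60.6 and 96.1 CPM in PBMC, BM-MSC and BMAC. PLIN3, the perilipin closest to PLIN2 in its wide tissue range, was at 7.45, 22.3 and 16.6 CPM, the same order as PLIN2. PLIN4, PLIN5 and CIDEC were under 2 CPM in every library.

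Around FABP4 and LPL, related genes differed between the marrow libraries in both directions. The list counts for this pair stand beside 3.21% of all measured genes called higher in BMAC and 2.90% in BM-MSC. FABP5, the close relative of FABP4, was at 23.3 CPM in BM-MSC, 4.99 CPM in PBMC and 0.198 CPM in BMAC, 117-fold higher in BM-MSC than in BMAC (39.8 to 571) from 397 and 3 counts. Among 15 genes of fatty acid uptake, binding and activation it was the 1 gene of 8 measured that was called between the marrow libraries (median 0.05). ANGPTL4, a secreted inhibitor of LPL, was ordered the other way, at 76.3 CPM in BMAC, 10.1 CPM in BM-MSC and 8.42 CPM in PBMC, 7.57-fold higher in BMAC than in BM-MSC (6.45 to 8.94). Among lipase partners and receptors, 1 of 11 measured was called higher in BMAC and 1 in BM-MSC (median 0.16), and GPIHBP1, which carries LPL on endothelium, had 0 counts in all 3 libraries. MGLL, the lipase of the last step of triglyceride breakdown, overlapping ABTB1, was 18.0-fold higher in BM-MSC than in BMAC (11.6 to 29.3) and was the 1 gene called among 5 measured lipolysis genes (median -0.50). Triglyceride synthesis had 0 of 9 called between the marrow libraries (median 0.52), and GPAT3, an enzyme of its first step, stood at 5.44, 31.3 and 61.9 CPM in PBMC, BM-MSC and BMAC.

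Around ADIPOQ and CFD, the adipokine list had 1 of 7 measured genes called higher in BMAC than in BM-MSC and 1 called higher in BM-MSC, with 2 above 0 and 5 below (median -0.34). Over all genes measured in this pair, 3.21% were higher in BMAC and 2.90% in BM-MSC, also for the lists that follow. The gene higher in BMAC was APLN, which encodes apelin, by 25.1-fold (18.5 to 34.9). The adiponectin receptor gene ADIPOR1 was at 16.6, 33.3 and 26.1 CPM in that order of libraries and ADIPOR2 at 41.2, 32.3 and 27.4 CPM, although ADIPOQ itself was at or near 0. In the alternative complement pathway, CFP, which encodes properdin, was at 35.8, 0.352 and 0.0661 CPM, with PBMC highest as for CFD. MASP1, whose splice product MASP-3 activates factor D, was the 1 of 5 genes called between the marrow libraries (median 1.59), at 1.94, 25.5 and 353 CPM. Its row does not tell splice products apart. Of 6 thermogenic and insulin-responsive genes measured between the marrow libraries 1 was called (median 0.02): DIO2, at 0.926 CPM in BMAC and 17.5 CPM in BM-MSC. UCP1, the uncoupling protein of brown fat, had 0.129 CPM in PBMC and 0 in both marrow libraries, and SLC2A4, the insulin-responsive glucose transporter, had 0 counts in all 3.

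**Figure D5:**
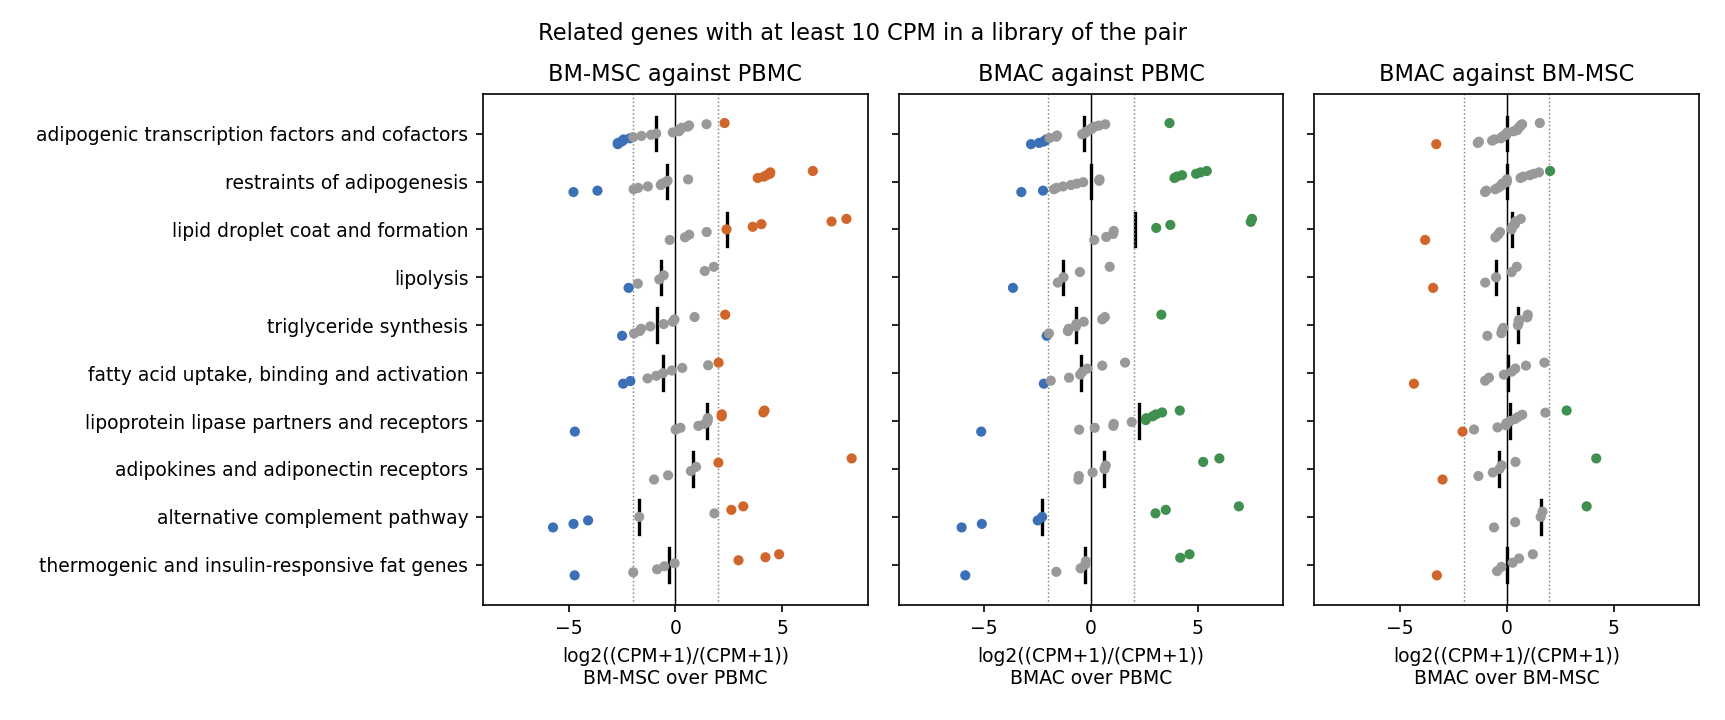
Log2 ratio of each related gene with at least 10 CPM in a library of the pair, by list and pair, with black bars for the list median, dotted lines at 4-fold and colours for the library of a called gene. Between BMAC and BM-MSC most lists centre near 0 with 1 or 2 genes past 4-fold, whereas the genes of the droplet coat list past 4-fold against PBMC are HILPDA and genes of caveolae.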

How the data were processed

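The files as deposited hold whole-number counts per annotated gene that differ in their totals, and were taken as unscaled counts. Per the submitters' processing notes Bowtie2 and bedtools were used, without version or role. The build, annotation, strand setting and handling of multiply mapped reads were not given in the sources used here. Samples were grouped by title. The 3 tables list the same 26965 rows, and rows of 1 symbol were summed (81 symbols, none of the 10 genes). RefSeq's Sscrofa11.1 table served for overlaps and neighbours only; sequences were not analysed here.

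CPM used the library total, with Python 3.11.15, scipy 1.17.1 and pandas 2.3.3. Level intervals are exact Poisson, fold intervals exact conditional (Clopper-Pearson), and bounds take 0 as 3 counts. A call needed at least 10 counts and 10 CPM in the higher library. The rule and intervals were tested on simulated Poisson counts, with known folds set only in genes well above 10 CPM. That run does not cover variation between libraries, folds of genes under 10 CPM or bounds against 0 counts. TMM factors came from edgeR 4.0.16; no count model was fitted. The genes and the 16 related lists were chosen with earlier results of these data known; 8 listed symbols had no row and were not analysed here, and 1 listed gene is counted in its list but not reported here. Named were all 10 genes, their overlapping and neighbouring rows, nearest patterns, and from each list the 3 largest ratios and the highest level; PRTN3, AZU1, PLIN3, ANGPTL4, HILPDA and other listed genes beyond these were chosen after their values were seen. The granulocyte, endothelial and marrow adipocyte-lineage lists were run as well: 3, 0 and 0 of 6 granulocyte markers and 2, 1 and 1 of 6 endothelial markers reached 10 CPM in PBMC, BM-MSC and BMAC, and of 7 marrow adipocyte-lineage stromal genes 0 were called higher in BMAC and 1 in BM-MSC of 4 measured. Over all genes measured between the marrow libraries these shares were 3.21% and 2.90%.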

Additional observations from a re-analysis of the deposited data

How the results depend on the processing

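For the 10 genes, BM-MSC against PBMC had 1 call among 3 measured genes. This became 2 of 4 with TMM factors, with median-of-ratios factors and without ribosomal and mitochondrial rows in the total (LPL added). It was 3 of 8 with a floor of 1 CPM and 3 of 3 with a 2-fold rule. BMAC against BM-MSC had 0 calls among 2 measured genes, which became 1 of 3 under the same 3 scalings (LPL) and 3 of 7 with a floor of 1 CPM. BMAC against PBMC had 2 calls among 3 measured genes and stayed within 1.5 times of that, with 3 of 7 under a floor of 1 CPM and 3 of 3 under a 2-fold rule. Over all genes, 3424 of 11428 measured were called for BM-MSC against PBMC. The count was 3325 of 11313 with TMM factors, 3325 of 11279 with median-of-ratios factors and 3527 of 11954 with the reduced total. It was 4023 of 17982 with a floor of 1 CPM, 1912 of 5203 with a floor of 50 CPM and 6643 of 11428 with a 2-fold rule. For BMAC against PBMC the count of 3042 of 11371 became 3582 of 17873, 1718 of 5162 and 5819 of 11371 under these floors and the 2-fold rule. For BMAC against BM-MSC the count of 630 of 10303 became 788 of 16336, 298 of 4229 and 1985 of 10303 in the same order, and 374 with a pseudocount of 5 CPM. With TMM factors, median-of-ratios factors and the reduced total it was 649 of 10488, 644 of 10473 and 694 of 10895. Of 180 recomputed log2 ratios (30 ratios under 6 settings), 163 stayed within counting error, 17 moved beyond it, and 0 called ratios changed sign. TMM factors moved 4, median-of-ratios factors 6 and the reduced total 4, and each of these was a ratio of CEBPD or PLIN2. The 3 moved by a pseudocount of 5 CPM were ratios of LPL and CFD. For BM-MSC over PBMC, CEBPD stood at 1.28 by library total but 1.61 after TMM scaling, and PLIN2 at 1.55 but 1.88. The fold intervals of CEBPD and PLIN2 therefore leave out the choice of scaling, which can shift these folds past them. Among uncalled ratios, ADIPOQ for BM-MSC over PBMC turned from -0.03 to 0.04 with TMM, 0.05 with median-of-ratios factors and 0.00 without ribosomal and mitochondrial rows. No paired analysis was possible because each population has 1 library, and no library could be left out. Depth limits PPARG, CEBPA, CEBPB, PLIN1, FABP4 and ADIPOQ in particular, which rest on at most 114 counts in any library.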
